A study of Homo sapiens with 10 samples.

Results

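Laminins and integrins are the ligand and receptor families through which a cell holds on to its basement membrane. The members described here are the protein-coding genes whose symbols name a laminin α, β or γ chain or an integrin α or β subunit. These are 38 of the 78932 gene identifiers counted, 12 laminin and 26 integrin genes. The rule matched symbols only, but it was chosen with earlier results of these data known. RNA came from cardiomyocytes made by directed differentiation of the human embryonic stem cell line H1. Beating cells were transfected on day 9 of differentiation with 50 nM of a GapmeR, an antisense oligonucleotide that directs RNase H to cut the RNA it pairs with, and harvested 48 hours later. The control GapmeR gave 5 libraries, labelled wild type, and the GapmeR against the RNA called CLIPPER gave 5, labelled as knockdown. Both groups share the line, the differentiation and the lipid transfection, and no group of untransfected cells was analysed here. The labels do not say whether the 5 replicates of a group came from separate differentiations, so p-values measure the spread between these libraries only, which may be technical.

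A laminin is secreted as a trimer of one α, one β and one γ chain, and the trimers polymerise into a sheet that nidogens and perlecan tie to collagen IV. In striated muscle the α2 chain predominates in the basement membrane of the mature fibre, where it binds dystroglycan and the integrin α7β1. Integrins are αβ dimers. Their extracellular heads bind laminin, collagen or ligands with an RGD sequence such as fibronectin and vitronectin, and their short tails recruit talin, kindlin and the actin cytoskeleton. The β1 subunit pairs with the largest set of α subunits, while αv also pairs with β3, β5, β6 and β8.

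The libraries held from 32.9 to 45.1 times 1e6 counts, and 1 count stood for 0.0213 to 0.0315 CPM, the normalised count scaled to a library of 1e6. Of the 12 cardiomyocyte markers listed, which include TNNT2, MYH6 and TTN, all 12 passed the filter on low counts, and their summed level was 40106 to 54760 CPM in the controls against 15583 to 25370 CPM after knockdown. Among all 21033 tested genes, 79.7% differed at an adjusted p below 0.05, 39.6% being lower and 40.1% higher in the knockdown, and the median log2 fold change was 0.0056. Knockdown replicates 1 and 2 stood apart from the other knockdown libraries and from each other, with a chi-square over its degrees of freedom of 46.1 to 207 in pairs that held either of them. It was 4.13 to 11.7 among knockdown replicates 3 to 5 and 10.3 to 39.0 among the controls. The level of CLIPPER itself was not analysed here, because no gene in the annotation carries that name. In bulk RNA, fewer cells of a type and less RNA per cell cannot be told apart.

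Nearly all laminin and integrin genes with enough counts to test were lower after the knockdown. Of 30 tested members 26 fell, 0 rose and 4 did not pass (edgeR quasi-likelihood test with Benjamini-Hochberg adjustment over all genes; 26 fell and 0 rose at an unadjusted p below 0.05). The 26 were 10 of 11 tested laminin genes and 16 of 19 tested integrin genes. For 22 of them the fall was at least 2-fold, which 24.2% of all tested genes reached, and for 7 it was at least 4-fold. In all 26 the 5 knockdown libraries lay below the 5 controls, which held for 33.8% of all tested genes. In none of the 30 did all knockdown libraries lie above the controls, as they did for 33.7% of all tested genes. The median log2 fold change of the 30 members was -1.20. Among the 14777 tested protein-coding genes, the class of all members, 47.0% were lower and the median was -0.22. The test asked for 0.264 CPM in at least 5 libraries, and 27 of the 30 members met this in every knockdown library. LAMA3 and ITGB4 met it through their control libraries alone and were thus open to a fall by the way they were selected. Without knockdown replicates 1 and 2 together 27 members fell and 2, ITGB4 and ITGAL, rose. ITGAL, not among the 30, then entered through its knockdown libraries alone and so was open to a rise only. DESeq2 and limma-voom called 0 members higher, and 26 and 27 lower.

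**Figure D1:**
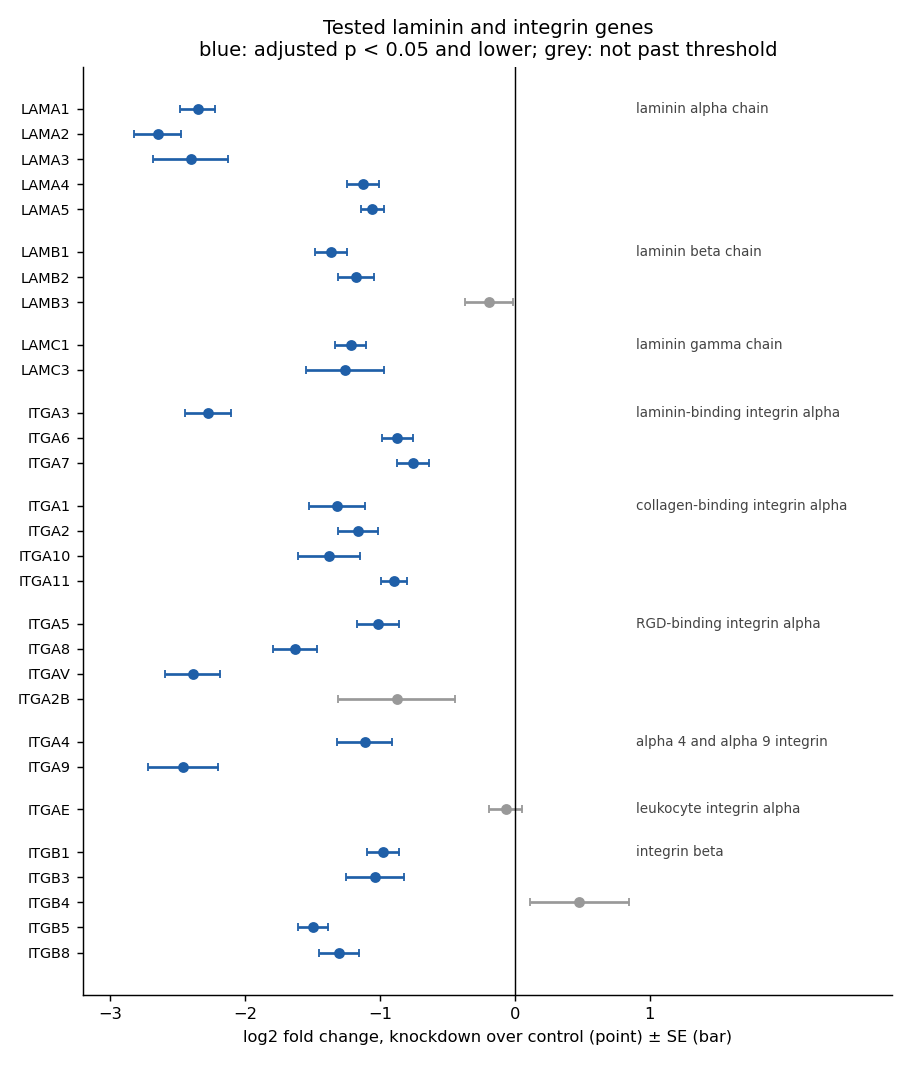
Log2 fold change of knockdown over control (x axis) with its SE for 29 tested members, ordered by role (y axis); blue points passed the test and grey points did not. All 25 blue points lie left of 0, from -0.76 for ITGA7 to -2.65 for LAMA2, and the 4 grey points are LAMB3, ITGA2B, ITGAE and ITGB4.

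The sequences shown next are the promoters of 4 of the lower members, 1 for each of the laminin α and γ chains and the integrin α and β subunits. Each is the member of its class with the highest control level per kb among those whose window holds no annotated exon on its strand, and no lower laminin β chain met that condition. They are the 250 bases before the RefSeq start site (GRCh38.p14), which for these 4 genes is also the GENCODE gene start. The windows lie at chr6:128882888-128883137 on the plus strand (LAMA2), chr1:183023170-183023419 on the plus strand (LAMC1), chr12:54419267-54419516 on the minus strand (ITGA5) and chr3:124901419-124901668 on the minus strand (ITGB5). Capitals mark every match, on either strand, to the GC box GGGCGG or to the TEAD motif GGAATG, which were the only ones of 6 searched motifs found in these windows.
LAMA2: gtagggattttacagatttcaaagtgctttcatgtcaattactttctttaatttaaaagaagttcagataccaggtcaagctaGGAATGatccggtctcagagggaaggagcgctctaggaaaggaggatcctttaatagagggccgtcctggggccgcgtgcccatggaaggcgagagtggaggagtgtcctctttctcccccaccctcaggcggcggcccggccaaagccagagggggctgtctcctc
LAMC1: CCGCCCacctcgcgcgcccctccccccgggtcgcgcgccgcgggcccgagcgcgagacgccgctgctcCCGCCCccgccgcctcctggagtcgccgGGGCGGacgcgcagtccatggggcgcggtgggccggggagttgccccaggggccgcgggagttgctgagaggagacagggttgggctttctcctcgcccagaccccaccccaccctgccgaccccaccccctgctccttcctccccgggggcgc
ITGA5: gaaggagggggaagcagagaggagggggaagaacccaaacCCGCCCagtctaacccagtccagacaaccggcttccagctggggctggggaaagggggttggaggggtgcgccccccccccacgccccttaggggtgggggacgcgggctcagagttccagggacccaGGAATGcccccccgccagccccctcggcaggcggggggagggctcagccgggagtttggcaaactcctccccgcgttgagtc
ITGB5: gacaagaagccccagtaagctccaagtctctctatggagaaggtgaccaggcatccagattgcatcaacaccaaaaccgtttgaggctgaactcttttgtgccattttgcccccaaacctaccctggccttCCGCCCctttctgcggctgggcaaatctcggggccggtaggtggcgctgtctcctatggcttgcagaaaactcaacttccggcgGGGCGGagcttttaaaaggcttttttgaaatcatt
LAMC1 held 3 GC boxes, ITGB5 2 and ITGA5 1, and LAMA2 held none. LAMA2 and ITGA5 each held 1 TEAD motif. The share of G and C was 53.2% in LAMA2, 79.6% in LAMC1, 70% in ITGA5 and 52.8% in ITGB5. Of the 38 members 26 had a window in the RefSeq table, and 13 of these 26 (50%) held a GC box, against 42.3% of 27305 windows of the same length, 1 per gene. The TEAD motif was in 4 of 26 (15.4%) against 11.9%, the CCAAT box (CCAAT) in 4 of 26 (15.4%) against 33%, the TATA box (TATAAA) in 1 of 26 against 11.1%, the AP-1 motif (TGANTCA) in 1 of 26 against 6.6% and the E-box (CACGTG) in 1 of 26 against 6.49%. Matches of different motifs may overlap, and a match describes letters, not binding.

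All 5 laminin α chains fell, and they fell by unequal amounts. LAMA2, the chain of the muscle basement membrane, was at 667, 661, 732, 676 and 741 CPM in control replicates 1 to 5 and at 103, 165, 95.3, 79.8 and 111 CPM in knockdown replicates 1 to 5. The groups were far apart, and the highest knockdown value was that of replicate 2. Its log2 fold change was -2.65 ± 0.177 (SE, adjusted p = 1.03e-07), or 6.28-fold lower. LAMA1, the α chain of the early embryonic basement membrane, went from 73.8 to 80.4 CPM across the controls to 11.7 to 19.5 CPM across the knockdown libraries, 5.11-fold lower (log2 fold change -2.35 ± 0.131).

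LAMA4, the α chain found in endothelial and early muscle basement membranes, was at 301, 272, 274, 284 and 245 CPM in the controls and at 129.7, 155, 115, 100.3 and 129 CPM in the knockdown libraries. LAMA5, the widespread epithelial and vascular α chain, was at 205, 220.0, 230.4, 228 and 254 CPM against 111, 118, 104, 103 and 110.5 CPM. Neither gene overlapped between the groups, and the knockdown libraries of LAMA5 lay close together. The falls were 2.19-fold for LAMA4 (log2 fold change -1.13 ± 0.117) and 2.08-fold for LAMA5 (-1.06 ± 0.0854). LAMA3, a chain of epithelial laminin, was sparse, at 1.54 ± 0.393 CPM in the controls against 0.279 ± 0.104 CPM (SD, n = 5), with 350 counts in all 10 libraries (log2 fold change -2.41 ± 0.28). It passed the filter through its control libraries alone, so its fall was favoured by the way it was selected.

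The 3 abundant β and γ chains that complete these trimers fell as well. LAMB1 was at 531, 555, 501, 543 and 541 CPM in the controls and at 209.5, 266, 194, 170.0 and 199.8 CPM in the knockdown libraries, 2.57-fold lower (log2 fold change -1.36 ± 0.119). LAMB2, the β chain of mature muscle and the neuromuscular junction, was at 479, 529, 484, 474 and 482 CPM against 227, 293, 188, 173 and 199.7 CPM, 2.26-fold lower (-1.18 ± 0.136). LAMC1, the γ chain shared by most laminins, was at 735, 705, 704, 695 and 710.2 CPM against 310.0, 378, 271, 259.7 and 306 CPM, 2.33-fold lower (-1.22 ± 0.113). For each of these 3 genes knockdown replicate 2 was the highest and replicate 4 the lowest of its group. Adjusted p-values were 6.4e-07, 5.97e-06 and 9.36e-07 in the quasi-likelihood test.

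The sparser β and γ chains were at a few CPM or less. LAMB3, a β chain of epithelial laminin, was at 2.02 ± 0.386 CPM in the controls against 1.77 ± 0.274 CPM (SD, n = 5; adjusted p = 0.332), with overlapping groups. The log2 fold change of LAMB3 was -0.19, and 0.01 with upper-quartile scaling. LAMC3 fell from 0.999 ± 0.254 to 0.424 ± 0.172 CPM (log2 fold change -1.26 ± 0.292). LAMB4 had 30 counts in all and was not tested.

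Because the α chains fell unequally, the make-up of the α chain RNA differed between the groups. On the scale of CPM per kb of the canonical transcript, LAMA2 made up 50.5%, 51.1%, 53.4%, 50.8% and 54.2% of the summed α chains in the controls and 26.8%, 33.4%, 27.0%, 25.0% and 28.4% in the knockdown libraries. LAMA4 made up 27.7% ± 2.42 of them before and 43.6% ± 1.39 after knockdown, and LAMA5 14.4% ± 0.935 and 24.2% ± 2.54 (SD, n = 5). The groups did not overlap for any of these 3 shares. On this scale LAMA2 was the most abundant α chain in every control library and LAMA4 in every knockdown library. In CPM without length scaling LAMA4 was not the most abundant α chain in knockdown replicates 2 and 4. In replicate 2 LAMA2 was at 165 and LAMA4 at 155 CPM. In replicate 4 LAMA5 was at 103 and LAMA4 at 100.3 CPM. The summed α chain level was 138 ± 3.35 CPM per kb in the controls against 40.01 ± 6.78, a ratio of 3.45. The ratio was 2.41 for the summed β chains (181 ± 6.47 and 75.3 ± 14.5) and 2.34 for the summed γ chains (90.5 ± 1.83 and 38.7 ± 5.85). Within the β chains LAMB1 and LAMB2 held nearly equal shares in both groups, LAMB1 52.2% ± 1.08 in control and 49.1% ± 1.29 in knockdown libraries. These shares are descriptions, with no test.

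**Figure D2:**
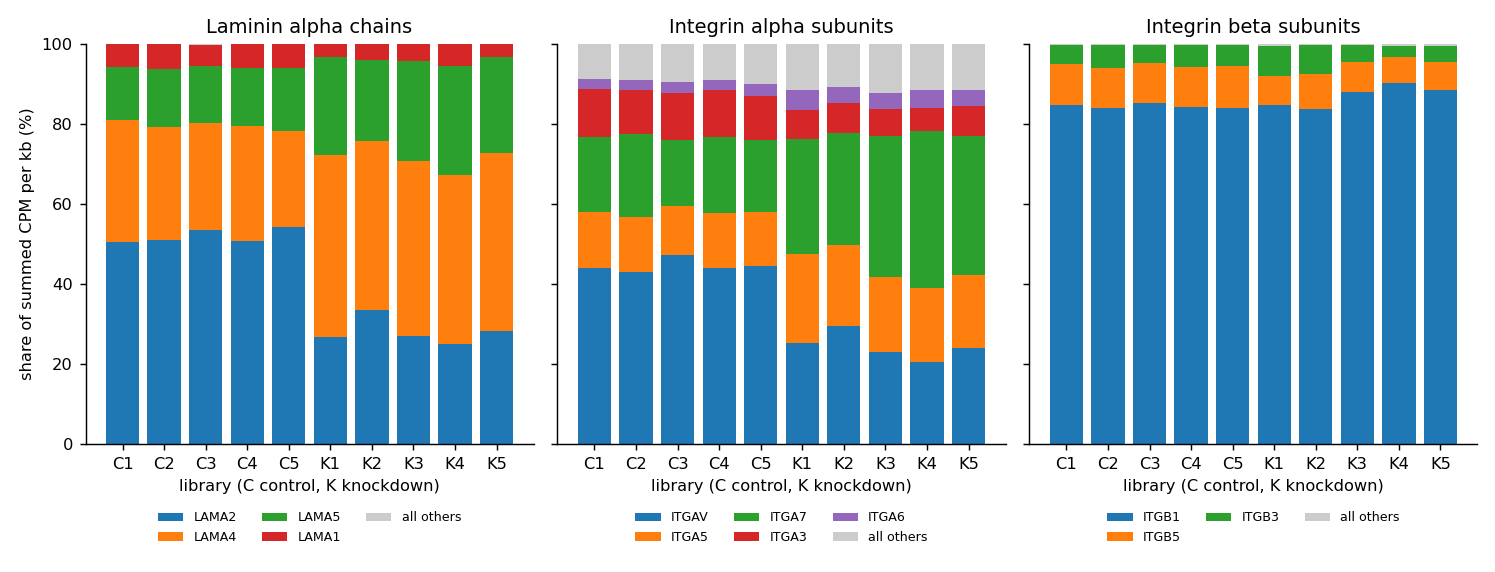
Share of the summed level per kb (y axis, %) taken by each gene within laminin α chains, integrin α subunits and integrin β subunits, for each of 5 control (C1 to C5) and 5 knockdown (K1 to K5) libraries (x axis). LAMA2 takes at least 50.5% of the α chains in each control and at most 33.4% in each knockdown library, ITGAV at least 42.9% and at most 29.6% of integrin α, and ITGB1 83.8% or more of integrin β in all 10.

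Of the integrin α subunits that bind laminin, all 3 fell. ITGA7, the muscle laminin receptor subunit, was at 183, 204, 141, 174 and 156 CPM in the controls and at 84.4, 119.9, 102, 103 and 98.2 CPM in the knockdown libraries. The groups did not overlap, and the 1.69-fold difference (log2 fold change -0.76 ± 0.12, adjusted p = 8.33e-05) was the smallest among the members that fell. ITGA3, known from epithelial and vascular laminin adhesion, was at 141, 129, 119, 128 and 112 CPM against 24.8, 38.6, 23.1, 18.4 and 24.9 CPM, 4.84-fold lower (-2.27 ± 0.171). ITGA6, which pairs with β1 or β4, was at 32.8 to 36.1 CPM against 16.1 to 23.8 CPM, 1.83-fold lower (-0.87 ± 0.115).

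Of the 4 RGD-binding subunits 3 fell. ITGAV, the αv subunit of the vitronectin receptors, was at 733, 721, 688, 687 and 654 CPM in the controls and at 126, 216, 114, 91.8 and 116 CPM in the knockdown libraries. Every knockdown library was well under the lowest control, with replicate 2 apart from the other 4. The fall was 5.25-fold (log2 fold change -2.39 ± 0.202, adjusted p = 5.16e-07). ITGA5, the classical fibronectin receptor subunit, was at 143, 141, 109, 128 and 118 CPM against 67.2, 88.8, 56.1, 49.8 and 53.7 CPM, 2.02-fold lower (-1.02 ± 0.153). ITGA8, which binds nephronectin, was at 3.5 to 3.85 CPM against 0.879 to 1.62 CPM (-1.63 ± 0.161). ITGA2B, the platelet fibrinogen receptor subunit, was at 0.379 ± 0.0913 and 0.201 ± 0.146 CPM (SD, n = 5) and did not pass (-0.88 ± 0.434, adjusted p = 0.0806). Without knockdown replicate 2 it passed as lower (log2 fold change -1.36, adjusted p = 0.00861 in the same edgeR test).

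All 4 collagen-binding α subunits fell, from 1.86-fold for ITGA11 to 2.6-fold for ITGA10. ITGA1 was the most abundant of them, at 59.5 to 68.9 CPM in the controls and 17.5 to 41.4 CPM in the knockdown libraries (log2 fold change -1.32 ± 0.206). Its neighbour ITGA2, 30.1 kb away on chromosome 5, went from 9.24 ± 1.27 to 4.11 ± 0.752 CPM (SD, n = 5; -1.16 ± 0.151). ITGA11 went from 13.1 ± 1.22 to 7.03 ± 0.473 CPM and ITGA10 from 3.97 ± 1.16 to 1.52 ± 0.378 CPM. Groups did not overlap for any of the 4.

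ITGA9 and ITGA4 form a branch of their own among the α subunits and bind VCAM1 and several matrix proteins. ITGA9 was at 48.3, 58.8, 47.6, 53.5 and 58.8 CPM in the controls and at 9.93, 17.7, 6.77, 6.03 and 7.75 CPM in the knockdown libraries, 5.51-fold lower (log2 fold change -2.46 ± 0.257). ITGA4 fell 2.17-fold, from 6.21 to 10.3 CPM across the controls to 2.82 to 5.85 CPM across the knockdown libraries. Its count is uncertain, because 26.4% of its annotated exon length overlaps exons of CERKL on the other strand and the strand setting of the counting is not given in the sources used here. VCAM1, a ligand of both that is named here after its values were seen, fell too, from 214 to 112 CPM (log2 fold change -0.93).

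Of the 5 tested β subunits, which pair with these α subunits, 4 fell. ITGB1, the common β subunit, was at 791, 788, 690.0, 762 and 718 CPM in the controls and at 292, 387, 395, 451 and 379 CPM in the knockdown libraries. Unlike most members it was lowest in knockdown replicate 1 and highest in replicate 4, with no overlap between the groups. The fall was 1.97-fold (log2 fold change -0.98 ± 0.119, adjusted p = 8.97e-06). ITGB5 was at 115, 112, 98.4, 109 and 107 CPM against 29.6, 47.0, 39.5, 38.9 and 36.6 CPM, 2.82-fold lower (-1.50 ± 0.113). ITGB3 was at 69.3, 84.9, 55.9, 77.8 and 71.0 CPM against 41.7, 53.8, 29.7, 22.1 and 27.3 CPM, 2.05-fold lower (-1.04 ± 0.215). The lowest control and the highest knockdown library of ITGB3 lay close together. A read-through locus shares 33.2% of the exon length of ITGB3, which makes its count uncertain. ITGB8 fell from 4.14 ± 0.436 to 1.67 ± 0.271 CPM (SD, n = 5; -1.31 ± 0.15).

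**Figure D3:**
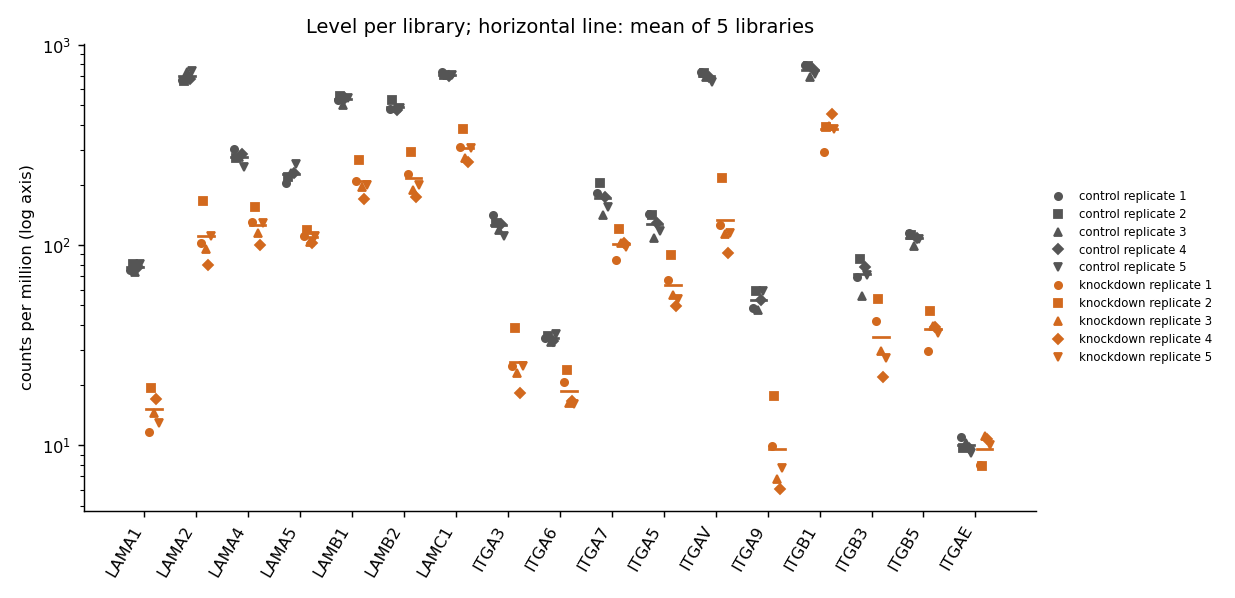
Level in CPM (y axis, log scale) of 17 members (x axis) in each control (grey) and knockdown (orange) library, with the symbol giving the replicate and the line the mean of 5. The groups are apart for 16 of the 17 genes; those of ITGAE overlap, at 9.21 to 11.1 CPM in control and 7.89 to 11.2 CPM in knockdown libraries.

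In levels per kb, ITGB1 was the most abundant member in both groups, at 201 ± 11.9 CPM per kb in the controls against 102 ± 15.2 (SD, n = 5). In the controls ITGAV (99.0 ± 4.46), LAMB1 (94.6 ± 3.59), LAMC1 (89.5 ± 1.89) and LAMB2 (86.0 ± 3.92) followed, and the libraries of neighbours in this order overlapped. LAMA2 came next at 71.8 ± 3.92. In the knockdown libraries LAMC1 (38.5 ± 5.85), LAMB2 (37.995 ± 8.28) and LAMB1 (36.8 ± 6.32) were within their spread of each other and ITGAV was at 18.9 ± 6.86, with libraries that overlapped those of ITGA7 (24.6 ± 3.08). ITGAV made up 44.5% ± 1.60 of the summed integrin α level in control and 24.5% ± 3.35 in knockdown libraries, and ITGA7 18.6% ± 1.53 and 33.2% ± 4.73. The laminin-binding subunits together made up 32.8% ± 1.31 and 44.4% ± 4.15, and the RGD-binding subunits 58.3% ± 1.01 and 44.4% ± 4.41. Groups did not overlap for any of these 4 shares. The summed integrin α level was 223 ± 15.2 CPM per kb in control and 75.5 ± 16.1 in knockdown libraries, a ratio of 2.95, and that of integrin β 238 ± 14.6 and 117 ± 15.4, a ratio of 2.03.

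The integrins of leukocytes, the intestinal and epithelial subunits and the sparsest members gave another picture. ITGAE, the αE subunit that binds E-cadherin, was at 10.02 ± 0.71 CPM in the controls against 9.56 ± 1.56 CPM (SD, n = 5; log2 fold change -0.07 ± 0.122, adjusted p = 0.609), and 6.47% of its exon length overlaps HASPIN on the other strand. ITGB4, the β subunit of epithelial hemidesmosomes, was at 0.352 ± 0.103 and 0.506 ± 0.246 CPM (0.48 ± 0.371, adjusted p = 0.249). Without knockdown replicates 1 and 2 together ITGB4 passed as higher, with a log2 fold change of 0.92 (adjusted p = 0.0123 in the same test). Counts in all 10 libraries were 17 for ITGB2, 20 for ITGB6, 48 for ITGAX, 59 for ITGAM, 80 for ITGAL, 85 for ITGAD and 98 for ITGB7, too few for the filter.

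Of these 7 sparse genes, ITGAD, ITGAL, ITGB7, ITGAM and ITGB2 had more counts in the knockdown libraries and ITGAX and ITGB6 had fewer. ITGAD, ITGAL and ITGB7 had 12, 7 and 23 counts over the 5 controls and 73, 73 and 75 over the 5 knockdown libraries. ITGAM went from 17 to 42 counts, ITGB2 from 7 to 10, ITGAX from 27 to 21 and ITGB6 from 14 to 6, and none of these 4 passed with no filter on counts. The groups did not overlap for ITGAD (0.0255 to 0.116 CPM and 0.212 to 0.446 CPM) and ITGB7 (0.0761 to 0.163 and 0.234 to 0.605), and did for ITGAL. With no filter on counts ITGAD, ITGAL and ITGB7 passed as higher, with adjusted p-values of 0.000103, 0.000743 and 0.00202 in the same test. For ITGB7, 42.3% of its exon length overlaps ZNF740 on the other strand. Of 10 leukocyte and platelet markers, CD3E and PPBP had 0 counts in all libraries and PTPRC, the pan-leukocyte marker, was under 0.1 CPM. The summed level of the list was 0.511 to 0.835 CPM in control and 1.75 to 6.42 CPM in knockdown libraries, with CD14 and CD68 higher. The part of such cells in these counts was not tested.

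Gene span, the distance from the annotated start to the end of a gene with introns, moved with the fold change in this experiment, and the members are longer than most genes. Their median span was 85.2 kb for the 30 tested members and 33.9 kb for the 14777 tested protein-coding genes. Across those genes, which are not independent, Spearman's rho between fold change and span was -0.599, and across the 30 members it was -0.469. Of the 10 members spanning 100 to 300 kb all 10 fell, in a bin where 82.7% of coding genes fell and the median log2 fold change was -1.30 (-1.27 for the members). Of the 14 members spanning 30 to 100 kb 11 fell, in a bin where 57.0% did, with medians of -1.09 for the members and -0.48 for the bin. Of the 4 spanning 10 to 30 kb 3 fell, in a bin where 29.1% did, with medians of -1.10 and 0.27. The 2 members over 300 kb, LAMA2 and ITGA9, fell in a bin where 93.4% did, with medians of -2.56 and -2.09.

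After a loess trend on span was subtracted, 25 of 30 members had a value below 0, as did 51.6% of coding genes, and the medians were -0.55 and -0.04. For LAMA4, ITGB1, ITGA1 and ITGA11 the value was near that of genes of like span, at 0.01, 0.00, -0.07 and 0.17. For ITGA3 it was -2.10, for LAMB2 -1.64 and for ITGAV and ITGA10 -1.61. LAMB2, the shortest member at 12.0 kb, fell 2.26-fold where the trend stood at 0.47, and LAMA2, the longest at 633 kb, had a value of -0.65 after the trend was subtracted. Whether span has a part in the fall of these genes was not tested.

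**Figure D4:**
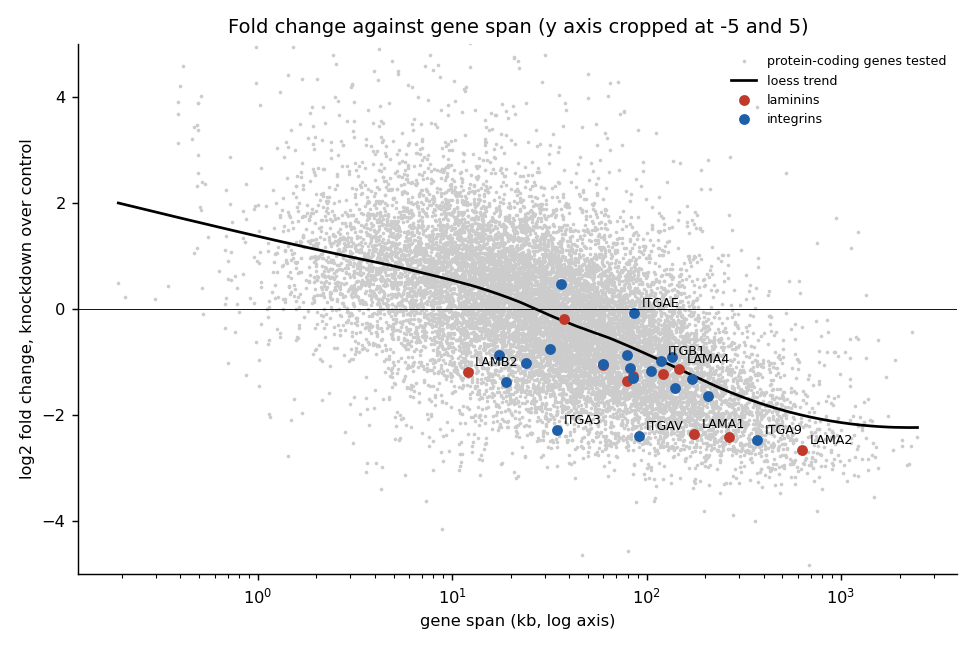
Log2 fold change of knockdown over control (y axis, cropped) against gene span in kb (x axis, log scale) for tested protein-coding genes (grey), 29 tested laminins (red) and integrins (blue), with the loess trend as a line. ITGA3, LAMB2 and ITGAV lie at least 1.61 below the line, and LAMA4 and ITGB1 lie on it.

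Knockdown libraries differed among themselves in the same way for most members. Of the 26 lower members, 22 were highest in knockdown replicate 2 within their group, and 18 were lowest in replicate 4. The lower members not highest in replicate 2 were LAMC3, ITGA10, ITGA11 and ITGB1. Among all lower genes 73.8% were highest in replicate 2, and the share lowest in replicate 4 was not determined. The coefficient of variation of the 26 genes had a median of 21.2% in the knockdown and 8.42% in the control group. Without knockdown replicates 1 and 2 together the median log2 fold change of the 30 members was -1.36.

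The other genes of the basement membrane mostly fell with the laminins. Of 23 tested genes 19 fell, 1 rose and 3 did not pass, where 47.0% of all tested protein-coding genes fell. The list's median stood at -1.49 (log2), and at -0.41 after the span trend was subtracted, with a median span of 158 kb. NTN1, a netrin with a laminin-like head, was at 45.7 ± 2.33 CPM in the controls and 2.84-fold lower, at 16.1 ± 1.30 CPM, after knockdown (SD, n = 5), and the collagen IV chain gene COL4A6 3.43-fold from 109 ± 11.7 to 31.7 ± 3.58 CPM. SPARC, a matrix protein that binds collagen IV, rose 1.74-fold from 366 ± 14.1 to 639 ± 178 CPM. NID1, the laminin-binding nidogen, and HSPG2, perlecan, named here after their values were seen, had log2 fold changes of -2.48 and -1.84.

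Ligands of integrins other than laminins were more mixed. Of 22 tested genes 12 fell and 5 rose, where 47.0% of all tested protein-coding genes fell. The list's median was -0.56, and -0.20 after the span trend was subtracted. NPNT, nephronectin, the ligand of α8β1, fell 5.09-fold from 381 ± 24.9 to 74.9 ± 28.5 CPM, and TNC, tenascin C, fell 3.69-fold from 10.4 ± 0.298 to 2.83 ± 0.643 CPM. CCN3, a matricellular ligand, rose 22.7-fold from 0.906 ± 0.255 to 20.7 ± 11.3 CPM. MADCAM1, the ligand of α4β7, rose 1.94-fold from 0.697 ± 0.133 to 1.36 ± 0.295 CPM. FN1, fibronectin, named after its values were seen, had a log2 fold change of -1.08.

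The dystroglycan complex is the other laminin receptor of muscle. The list made for it also held BCAM, CD151 and RPSA, which are not part of the complex. Of the 25 tested genes of this list 16 fell and 5 rose, where 47.0% of all tested protein-coding genes fell. DAG1, dystroglycan itself, named after its values were seen, fell from 370 to 288 CPM (log2 fold change -0.36), against -2.65 for its ligand LAMA2. DMD, dystrophin, fell 7.55-fold from 336 ± 33.2 to 44.5 ± 21.4 CPM, and SGCD, δ-sarcoglycan, 5.41-fold from 4.26 ± 0.64 to 0.775 ± 0.192 CPM. Spans of these 2 genes are 2242 and 897 kb. CD151, the tetraspanin that holds laminin-binding integrins at the membrane, rose 2.15-fold from 135 ± 10.9 to 289 ± 89.2 CPM, and POMT2, which glycosylates dystroglycan, 1.73-fold. The median of the list was -0.36, and -0.02 after the span trend was subtracted.

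Inside the cell, 14 of 21 tested regulators of the integrin tail fell and 4 rose, where 47.0% of all tested protein-coding genes fell. The median of these regulators stood at -0.65 (log2), and at -0.15 after the span trend was subtracted. RAPGEF1, an exchange factor for Rap1, fell 4.07-fold from 305 ± 4.79 to 74.9 ± 15.7 CPM, and KANK1, a talin-binding protein, 3.29-fold. RAP1B, the GTPase that drives talin to the membrane, rose 2.88-fold from 32.0 ± 2.42 to 92.4 ± 5.64 CPM, and CIB1, which binds the αIIb tail, 3.74-fold from 30.6 ± 2.15 to 114 ± 31.3 CPM. Of 40 tested genes of adhesion signalling and actin linkage 31 fell and 4 rose, with a median of -1.10, and of -0.54 after the span trend was subtracted. ARHGAP26, a partner of focal adhesion kinase, fell 9.93-fold from 91.8 ± 3.20 to 9.19 ± 4.39 CPM, and PARVB, β-parvin, 3.47-fold from 54.6 ± 3.02 to 15.7 ± 3.22 CPM. GIT1 rose 2.43-fold from 44.6 ± 0.955 to 108 ± 7.13 CPM and the adaptor gene CRKL 1.92-fold. All 5 lists were read from the same 10 libraries as the members.

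**Figure D5:**
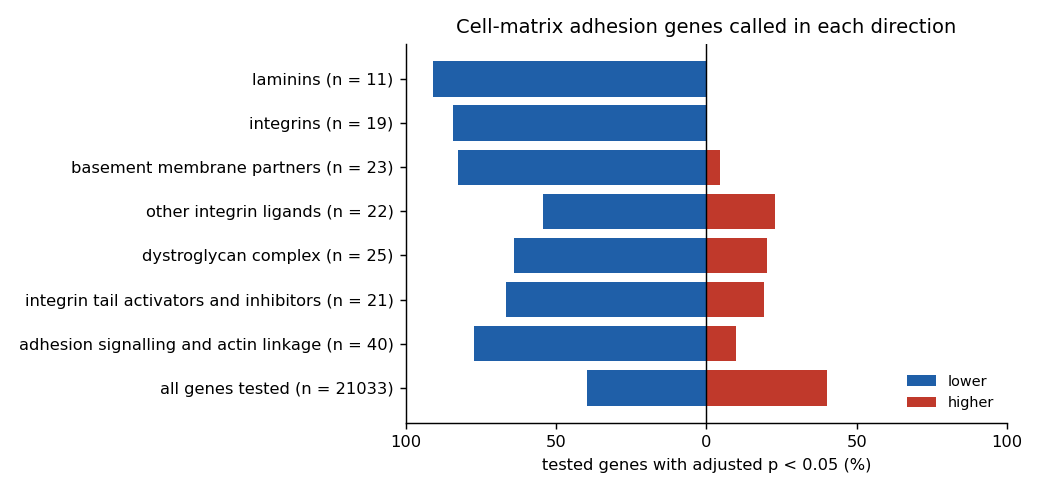
Percent of tested genes (x axis) called lower (blue, to the left) or higher (red, to the right) in the knockdown at an adjusted p below 0.05, for laminins, integrins, 5 lists of adhesion partners and all genes tested (y axis, with the number tested). The bar for all genes is nearly even at 39.6% and 40.1%, and those of laminins and integrins have no red part.

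Of 5 tested transcripts named after members 4 fell, where 39.6% of all tested genes were lower and 40.1% higher. ITGA2-AS1, ITGA6-AS1 and ITGA9-AS1 fell, with log2 fold changes of -1.19 ± 0.339, -1.12 ± 0.268 and -0.78 ± 0.177, and so did the pseudogene ITGB1P1 (-0.93 ± 0.159). ITGA6-AS1 and ITGA9-AS1 overlap exons of their namesakes on the other strand. ITGA2-AS1 overlaps exons of ITGA1 on the other strand, at 7.47% of the exon length of ITGA1. ITGB1-DT, a divergent transcript that overlaps ITGB1 on the other strand, rose from 0.272 ± 0.0975 to 0.946 ± 0.226 CPM (SD, n = 5; 1.78 ± 0.284, adjusted p = 8.92e-05). Reads of a gene and its antisense partner, or of ITGB1 and its processed copy, cannot be told apart with certainty from these counts.

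Markers of other cell types that carry integrins were present at different levels. Each count of lower markers stands beside 47.0% of all tested protein-coding genes that fell. Summed levels of 10 fibroblast or stromal markers were 1314 to 1439 CPM in the controls against 971 to 1146 CPM, where 5 of 8 tested genes fell and 1, COL1A2, rose, and the stromal markers TCF21 and DPT were under 0.1 CPM. The sums for 7 smooth muscle markers were 1541 to 2822 and 781 to 1252 CPM, with 6 of 7 lower, and for 9 endothelial markers 42.1 to 64.1 and 21.0 to 27.8 CPM, with 3 of 6 tested lower and PECAM1 and CDH5 under 0.3 CPM on average. CLDN5 of that list, which did not pass the filter on low counts, was at 0.0477 CPM in the controls and 1.14 CPM after knockdown. The sums for 8 epicardial markers were 9.36 to 14.3 and 6.36 to 8.59 CPM, with 4 of 5 tested lower. Of the epicardial markers not tested, MSLN was at 0.0173 CPM in the controls and 0.337 CPM after knockdown, and ALDH1A2 and UPK3B were lower. The 8 pluripotency markers summed to 7.74 to 10.4 and 8.19 to 9.85 CPM, but they moved apart. LIN28A rose from 0.258 to 2.51 CPM and DPPA4 from 0.211 to 1.65 CPM, DNMT3B fell from 7.86 to 4.01 CPM, TDGF1 did not pass, and NANOG and L1TD1 were under 0.1 CPM. The 10 endoderm or epithelial markers summed to 672 to 952 and 966 to 1285 CPM, most of it KRT8. Of the tested genes of that list KRT19 rose from 32.1 to 165 CPM and APOA1 from 6.03 to 14.9 CPM, EPCAM fell from 5.25 to 2.37 CPM and 3 did not pass, while FOXA2, AFP and TTR were under 0.1 CPM. Of the 12 cardiomyocyte markers 11 fell and 0 rose. The part of these cell types in the fall of laminins and integrins was not tested.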

How the data were processed

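Libraries of 10 samples were made from total RNA with a stranded kit, per the labels. The deposited table holds raw counts per gene, not normalised. Per the series' design text and the submitters' processing notes the authors used Trim Galore 0.65 to trim, STAR 2.7.0 to map to GRCh38 (annotation GENCODE 38) and HTSeq to count. Its strand setting is not given in the sources used here, and the CPM and length scaling the design text mentions is not in this table. Control columns, spelled unlike the labels, were matched by full titles, and 0 sample columns were left unmapped.

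Symbols, spans and exons came by identifier from GENCODE release 44, which held 61481 of 78932 identifiers. The other 17451 stayed in the test without a name. Since they are missing from a release later than the stated GENCODE 38, the annotation behind the counts is uncertain, and spans, exon lengths and overlaps may differ from it. Genes were filtered with filterByExpr, scaled by TMM factors and tested with edgeR 4.0.16 (quasi-likelihood F test, robust dispersions, R 4.3.3, Benjamini-Hochberg over 21033 genes, threshold 0.05). SE is the log2 fold change over the root of F. The script was tested on simulated data. Alternatives used limma 3.58.1, DESeq2 1.42.0, other scalings and filters, the replicate number as a block and left-out libraries, and figures matplotlib 3.10.9. Levels per kb divide CPM by the exons of the canonical transcript. The members and lists were chosen with earlier results of these data known. Named were the tested members, except 1 that is counted but not reported here singly, and, of each list, up to 2 rising and 2 falling genes with the smallest p, a mean of at least 1 CPM and no overlap between the groups. Every pair of libraries within a group differed beyond counting error (chi-square over its degrees of freedom at least 4.13).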

Additional observations from a re-analysis of the deposited data

Results flagged for a closer look

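3 library values of members stood apart from the other 4 of their group, by a gap over 0.71 of the group's range, Dixon's limit for 5 samples. Chance gives about 1 such group in 20, and 54 groups were examined. LAMB2 was at 529 CPM in control replicate 2, where the next highest control was at 484 CPM. Without that library its log2 fold change was -1.17. ITGAV was at 216 CPM in knockdown replicate 2, where the next highest was at 126 CPM, and without that library its log2 fold change was -2.65 against -2.39 with it. ITGA4 was at 5.85 CPM in knockdown replicate 2, where the next highest was at 3.63 CPM, and its value without that library was -1.33 against -1.12.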

How the results depend on the processing

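The 26 lower members passed in the same direction under every alternative that tested them, with adjusted p-values of at most 0.00841 (LAMC3 without knockdown replicates 1 and 2). A minimum mean of 1 CPM tested 26 of the 38 members and called 24 lower. Each library left out gave 26 to 27 lower and 0 to 1 higher members, the 1 being ITGAD, which then passed the filter through its knockdown libraries alone and so was open to a call as higher only. Members called higher numbered 3 with no filter beyond 1 count and 2 (ITGAL, which entered through knockdown libraries alone, and ITGB4) without knockdown replicates 1 and 2. The median of the 30 members lay between -1.36 (knockdown replicates 1 and 2 left out) and -1.01 (upper-quartile factors, which shift all genes by 0.20). Of 596 member values 589 kept direction and side of the threshold, 4 passed that had not (ITGA2B under 3 settings, ITGB4) and 3 changed sign without passing: LAMB3 (0.0050) and ITGAE (0.13) with upper-quartile factors and ITGAE (0.080) without knockdown replicates 1 and 2. After removal of the span trend, LAMA4 (0.0054) and ITGA11 (0.17) changed sign, as did LAMB3 (0.04) and ITGAE (0.68), which had not passed. The share of LAMA2 among α chains changed by -23.9 points, or -19.8 with all annotated exons as length, that of LAMA4 rose by 15.9 points, by 13.3 without length scaling and 12.2 with all exons, that of LAMA5 by 9.82, or 12.8 without length scaling, and that of ITGAV changed by -20.05, or -16.4 with all exons, the last setting chosen after seeing the data. Without 1 library the share of LAMA2 fell by 23.1 to 25.2 points.

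Same-numbered libraries did not deviate together (correlations -0.17 to 0.22, 2 of 5 knockdown libraries best with their own number), so numbers were not taken as pairs. With the replicate block 26 members were lower and 0 higher, and over all genes 8211 were lower and 8214 higher, against 8332 and 8441. Members with under about 100 counts in all were left out by the filter, and 3 of them passed without it.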
